A study of Mus musculus with 14 samples.

Results

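Tumours of C57BI/6 mice, a strain spelled here as in the labels, received vehicle or ACSS2i, which blocks ACSS2, an enzyme that makes acetyl-CoA from acetate. The comparison uses 8 of the 14 libraries of the series, 4 from vehicle tumours and 4 from ACSS2i tumours. They were chosen by their strain and treatment labels alone. Both groups share the strain, the tissue (bulk tumour, ground to powder) and the library kit. The title of the series concerns triple negative breast cancer. The tumour line, the name, dose and schedule of the inhibitor, and the age and sex of the mice are not given in the sources used here. Bmal1 status appears in the design line of the series but in none of these 8 labels, so it was not used. Nothing in the labels says that each library is a separate animal. The p-values therefore measure only the spread between these samples, which may be technical.

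ACSS2 joins acetate to coenzyme A in the cytosol and nucleus and so feeds lipid synthesis and histone acetylation. Interferons are secreted alarm proteins that act through JAK kinases and STAT transcription factors on a large set of antiviral and antigen presentation genes. Tumours also hold immune cells: monocytes that enter from the blood and become macrophages, T cells and natural killer cells that kill through granzymes and perforin, and neutrophils drawn by CXCR2 ligands. Bulk tumour RNA mixes all of these with the cancer cells, so more cells of a type and more RNA per cell cannot be told apart in any result below.

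Totals ran from 17.6 to 19.2 M counts in vehicle and from 18.4 to 20.3 M in ACSS2i. The kit, QuantSeq of Lexogen, reads the 3' end of polyadenylated transcripts. Levels are given as CPM, counts scaled to a common library total after TMM adjustment. Skeletal muscle RNA stood out in 3 libraries. The summed level of 39 muscle genes, of which 23 could be tested, was 2068, 237, 208 and 160.3 CPM in vehicle 1 to 4. It was 668, 192, 6101 and 167 CPM in ACSS2i 1 to 4, so vehicle 1, ACSS2i 1 and ACSS2i 3 stand above the other 5 and 2 of the 3 are treated. Summed levels here and below cover all listed genes, tested or not. Acta1, skeletal muscle actin, was highest in the same 3 libraries, at 173, 4.25, 0.704 and 0.46 CPM in vehicle and 80, 2.77, 911 and 0.528 CPM in ACSS2i. As for the tumour label, the keratin gene Krt8 lay at 290 to 377 CPM and the intermediate filament gene Vim at 4190 to 6030 CPM. The epithelial adhesion gene Epcam had only 6 counts in vehicle and 30 in ACSS2i, and 8 of 28 mammary and epithelial genes could be tested. Of the 3 receptors that define the triple negative class, Pgr had 15 and 10 counts in all, Erbb2 lay at 4.27 to 5.28 CPM and Esr1 was present at 15 to 17.7 CPM.

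In the 8 libraries 15589 genes were tested and 266 (1.71%) passed an adjusted p of 0.05. Of these, 234 (1.5%) were higher and 32 (0.205%) were lower in ACSS2i, and none of the 266 overlapped between the groups. Among all tested genes the groups did not overlap for 9.42%, with 5.96% higher and 3.46% lower in ACSS2i. At an unadjusted p under 0.05, 2279 genes (14.6%) passed, and the DESeq2 test, run as an alternative, called 763 (5% of the 15251 genes it gave an adjusted p, 3.59% higher and 1.42% lower). The higher genes had a median log2 fold change of 0.89, 94 of them changed 2-fold or more and 17 changed 4-fold or more. The lower genes changed less, with a median of -0.51 and 4 genes at 2-fold or more. Together the higher genes rose from 9416 to 15330 summed CPM and the lower genes went from 7194 to 5465. Over all tested genes the median log2 fold change was 0.0061. TMM scaling sets most genes near 0, so this median cannot show whether all genes shifted together.

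**Figure D1:**
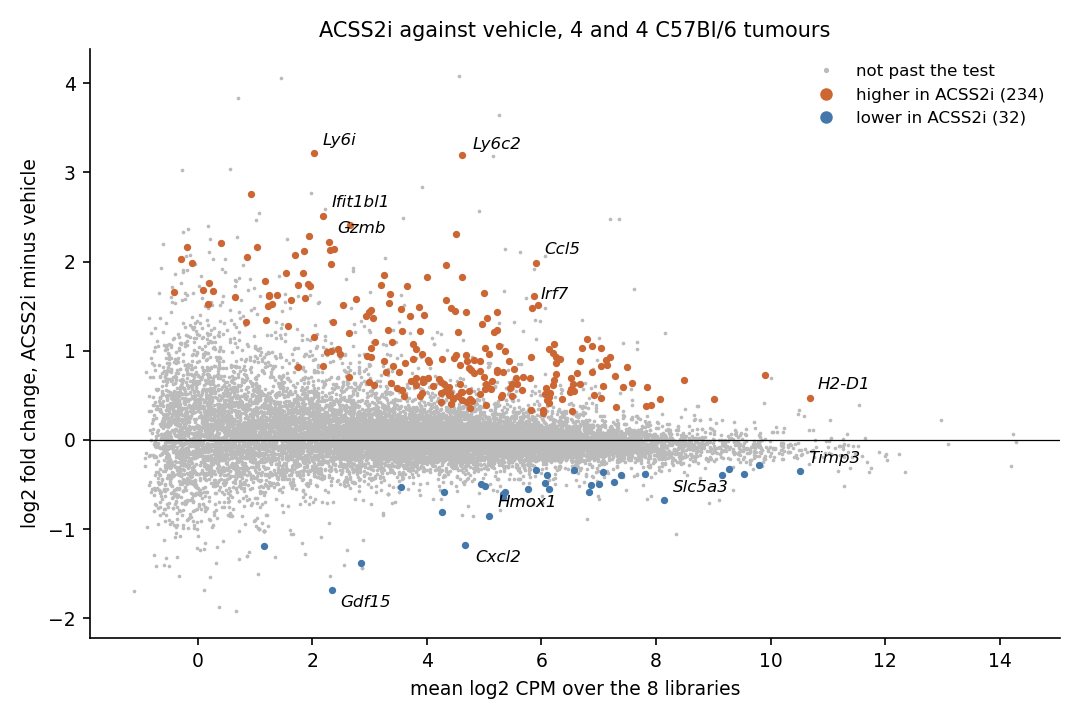
Each point is 1 of 15589 tested genes, with its mean log2 CPM over the 8 libraries on the x axis and its log2 fold change (ACSS2i minus vehicle) on the y axis. The 234 higher genes (orange) reach a log2 fold change of 3.21 at Ly6i, and the 32 lower genes (blue) reach -1.69 at Gdf15.

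The number of calls rested on single libraries. It fell to 85 without vehicle 2, 77 without vehicle 3, 165 without ACSS2i 1, 73 without ACSS2i 2 and 99 without ACSS2i 4. It stayed within 1.5 times of 266 without vehicle 1 (253), vehicle 4 (184) or ACSS2i 3 (215). Leaving out the 3 libraries with muscle RNA together gave 124 higher and 9 lower genes, of which 86 and 4 were among the 234 and 32. Called in each of the 8 fits that leave out 1 library were 48 higher and 4 lower genes. Of these 52, 44 also passed without the 3 muscle-rich libraries. Among the 8 that did not were the 4 lower genes (Hmox1, Zfp503, Irx2 and the pseudogene Ftl1-ps1) and Daxx, Trafd1 and Uba7.

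**Figure D2:**
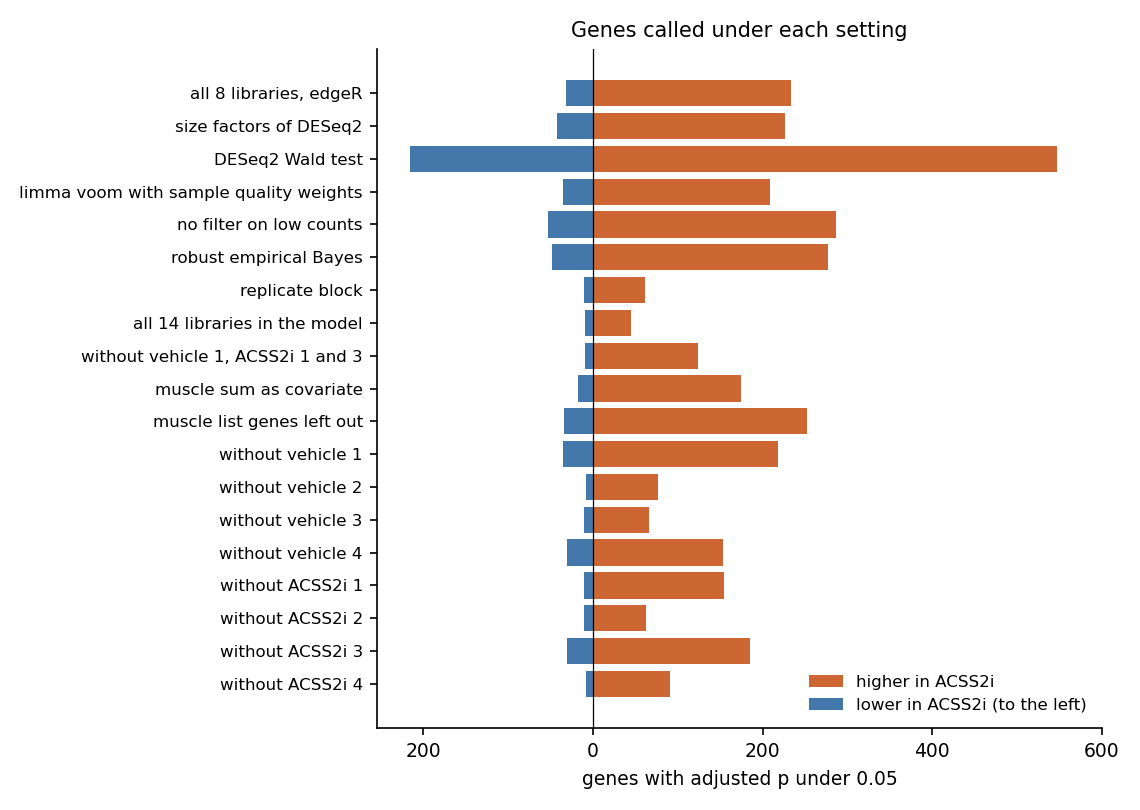
Bars give the number of genes with an adjusted p under 0.05 under each setting, higher genes to the right of 0 and lower genes to the left. Higher genes outnumber lower genes under every setting drawn, from 45 against 9 with all 14 libraries in the model to 547 against 216 with the DESeq2 Wald test.

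Monocyte genes were among those with the smallest p. Ly6c2, which encodes the Ly6C surface protein of inflammatory monocytes (chr15:75108158-75111970, mm10), was at 5.89, 3.56, 5.58 and 4.09 CPM in the 4 vehicle tumours and 37.4, 59.3, 44.4 and 34.1 CPM in the 4 ACSS2i tumours. Every treated library was far above every control. Its log2 fold change was 3.19 ± 0.21 (SE; adjusted p = 0.000258). Ms4a4c, a membrane protein gene of the Ms4a cluster, was at 9.21, 6.64, 8.28 and 8.4 CPM in vehicle and 26.1, 42.1, 33.7 and 25 CPM in ACSS2i (1.96 ± 0.17, adjusted p = 0.00255). Plac8, expressed in circulating monocytes, was at 11.3, 6.26, 7.63 and 4.95 CPM against 30.9, 50, 42.8 and 26 CPM (2.31 ± 0.27, adjusted p = 0.00491). In all 3 genes ACSS2i 2 was the highest library. Fcgr1, the high-affinity receptor for IgG, rose by 0.76 ± 0.09 and Ly6i by 3.21 ± 0.46 on the log2 scale. The near-identical Ly6 and Ms4a genes may share reads, so the split between their members is uncertain.

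Among the defining monocyte markers Ly6c2 was called and Ccr2 was not. Over all tested genes 1.5% rose and 0.205% fell, shares to set beside each list count here and below. Of 24 monocyte genes tested, 12 rose and none fell, with a median log2 fold change of 0.68. The summed level was 4876, 4258, 4373 and 4852 CPM in vehicle and 4469, 4275, 4159 and 4402 CPM in ACSS2i, so the sums of the groups overlapped. Most of that sum is Fn1, the matrix protein fibronectin, which tumour and stromal cells make too, at 3227, 2796, 2814 and 3092 CPM in vehicle and 2612, 2263, 2192 and 2561 CPM in ACSS2i (-0.31 ± 0.08, adjusted p = 0.0816). Between 7 and 11 rose when 1 library was left out, and omission of vehicle 2, vehicle 3 or ACSS2i 2 lowered the count by over 1.5 times. Without the muscle-rich libraries 7 rose. Over all genes the calls fell too, from 266 to between 73 and 253 when 1 library was left out, and to 133 without the muscle-rich libraries. Ly6c2, Ms4a4c, Plac8, Fcgr1, Ly6i and the neighbour Ms4a6b (0.90 ± 0.09) were called in each of these fits. Fcgr4, another IgG receptor (1.30 ± 0.21), lost its call without vehicle 3, ACSS2i 2 or ACSS2i 4 (adjusted p up to 0.0625).

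Interferon response genes rose in greater number. Of 61 type I interferon response genes tested, 32 (52.5%, against 1.5% of all tested genes) rose and none fell. In sign 60 were positive, with a median of 0.69. Their summed level was 3757, 3417, 4262 and 4281 CPM in vehicle and 4947, 6398, 6209 and 5606 CPM in ACSS2i, and the groups did not overlap. The list was chosen with earlier results of these libraries known, so its direction is not independent evidence. Between 20 and 36 rose when 1 library was left out, fewest without vehicle 2 or ACSS2i 2, and 19 rose without the muscle-rich libraries. The interferon genes Ifnb1 and Ifng were too low to test: Ifnb1 had 3 counts in each group, and Ifng had 2, 0, 0 and 2 counts in vehicle 1 to 4 and 9, 14, 4 and 12 in ACSS2i 1 to 4.

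The antiviral effectors gave the smallest p of the list. Ifit1bl1, a member of the IFIT family that binds foreign RNA, was at 1.93, 0.902, 1.24 and 1.15 CPM in vehicle and 6.42, 9.47, 7.62 and 6.53 CPM in ACSS2i (2.52 ± 0.25, adjusted p = 0.00393). Oas1a, an oligoadenylate synthetase that senses double-stranded RNA, was at 12.1, 11.6, 16.7 and 15.1 CPM and 29.8, 29.6, 37.4 and 32.1 CPM (1.21 ± 0.13, adjusted p = 0.00491). Slfn1, of the Schlafen family, was at 7.87, 4.35, 7.15 and 8.52 CPM and 20.1, 30.7, 25.1 and 22.9 CPM (1.83 ± 0.20). The 2 groups were well apart in all 3 genes. Oas1g rose by 1.57 ± 0.18, Oas3 by 1.49 ± 0.18, Trim30c by 1.87 ± 0.21 and the GTPase Mx1 by 1.54 ± 0.20. Samhd1, which breaks down deoxynucleotides, was at 123, 90.1, 95.8 and 96.3 CPM in vehicle and 176, 229, 181 and 185 CPM in ACSS2i (0.93 ± 0.11, adjusted p = 0.00495). Oas1a and Oas1g are close copies and may share reads. These 8 genes were called without each library in turn and without the muscle-rich libraries.

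Several regulators of the response, named after their values were seen, rose too. Irf7, the transcription factor that amplifies type I interferon signalling, was at 29.3, 21.3, 34.3 and 35 CPM in vehicle and 57.5, 106, 91.6 and 79.6 CPM in ACSS2i (1.48 ± 0.20, adjusted p = 0.00733). Isg15, a ubiquitin-like protein, was at 86, 89, 120.2 and 96 CPM and 153, 187, 216 and 171 CPM (0.89 ± 0.13). Its activating enzyme Uba7 (0.91 ± 0.13) and its conjugating enzyme Ube2l6 (0.86 ± 0.11) rose with it. Stat2, a transcription factor of type I interferon signalling, was at 38.7, 37.6, 44.5 and 49.2 CPM in vehicle and 60.6, 77.6, 72.1 and 65 CPM in ACSS2i (0.70 ± 0.11, adjusted p = 0.0149), and lost its call without vehicle 2, vehicle 3 or ACSS2i 2 (up to 0.053). Without the muscle-rich libraries Stat2 (adjusted p = 0.0811) and Uba7 (adjusted p = 0.0615) were not called.

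Cytosolic sensors of nucleic acid rose in part. Of 19 sensor and interferon genes tested, 5 rose and none fell, with a median of 0.30. Ifih1, the MDA5 sensor of double-stranded RNA, was at 17.6, 14.4, 18.3 and 19.6 CPM in vehicle and 29.4, 37.3, 36.6 and 31.4 CPM in ACSS2i (0.95 ± 0.11, adjusted p = 0.00491). Zbp1, a sensor of Z-form nucleic acid (0.58 ± 0.09), Trex1, an exonuclease that clears cytosolic DNA (0.90 ± 0.14), and Cgas, the DNA sensor that makes cyclic GMP-AMP (0.50 ± 0.09), also rose. Zbp1 was not called without ACSS2i 2, Trex1 without vehicle 2 or ACSS2i 2, and Cgas without vehicle 2, vehicle 3, ACSS2i 2, ACSS2i 3 or ACSS2i 4 (adjusted p up to 0.0538, 0.0558 and 0.0842). Without vehicle 2 or without ACSS2i 2 the count in the list fell by over 1.5 times, to as few as 2. Without the muscle-rich libraries 2 were called, and Zbp1, Trex1 and Cgas were not (adjusted p = 0.0989, 0.0667 and 0.172).

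The p200 family, interferon-inducible DNA-binding proteins, had 8 of 12 tested members higher and none lower, with a median of 0.81. Ifi208 was at 5.36, 4.14, 3.9 and 6.16 CPM in vehicle and 12.4, 18.3, 16.8 and 13.4 CPM in ACSS2i (1.64 ± 0.18, adjusted p = 0.00491). Ifi209 rose by 1.48 ± 0.17 and Ifi213 by 1.40 ± 0.20. In the genome they lie side by side: 9 of the 10 tested genes in chr1:173566283-174031810 (mm10) were higher, a count that includes a pseudogene of the family. Here and below, such a stretch runs from its first to its last gene called higher, so a high share is built in. Members are similar in sequence and may share reads. Leaving out 1 library gave 3 to 8 higher members of the list, with over 1.5 times fewer without vehicle 2, vehicle 3, ACSS2i 2 or ACSS2i 4, and 4 were higher without the muscle-rich libraries.

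RefSeq promoters (GRCm38.p6, from 250 bases before to 50 after the start) were at hand for 10710 of the 15589 tested genes, matched by symbol; 19.9% of them have more than 1 promoter and count as matched if any holds the motif. The interferon response element core, searched on both strands as GAAA, any 2 bases and GAAA, was found in 4.01% of them. It was found in 36 of 174 higher genes with a promoter (20.7%) and in 1 of 25 lower genes (4%). Among the higher type I interferon genes it was found in 12 of 25 (48%), and among all tested members of that list in 22 of 48 (45.8%). Of the higher genes outside the list, 24 of 149 (16.1%) held it. The STAT site core, TTCNNNGAA, was found in 8.38% of all tested genes, 14.9% of the higher and 20% of the lower genes. The 2 motifs differ in length and share the letters GAA. A match is a description of sequence, not a binding site.

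The stretches below are shown for the 5 higher type I interferon genes of smallest p that hold the core. Each runs 5' to 3' on the strand of its gene with the match in capitals, and for Ifih1, whose match lies after the start, only a short window is given.
Ifit1bl1 (chr19:34601969-34602218, minus strand): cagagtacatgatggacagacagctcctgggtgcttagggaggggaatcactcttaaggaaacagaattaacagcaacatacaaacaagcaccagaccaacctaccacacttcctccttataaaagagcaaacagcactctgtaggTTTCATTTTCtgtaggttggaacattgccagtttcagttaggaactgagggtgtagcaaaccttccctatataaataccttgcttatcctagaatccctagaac
Oas1a (chr5:120907526-120907775, minus strand): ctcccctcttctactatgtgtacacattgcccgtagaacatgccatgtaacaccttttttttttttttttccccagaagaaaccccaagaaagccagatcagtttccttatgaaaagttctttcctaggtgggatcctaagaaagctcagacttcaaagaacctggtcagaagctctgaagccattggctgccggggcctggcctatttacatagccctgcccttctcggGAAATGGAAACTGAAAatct
Oas1g (chr5:120887614-120887863, minus strand): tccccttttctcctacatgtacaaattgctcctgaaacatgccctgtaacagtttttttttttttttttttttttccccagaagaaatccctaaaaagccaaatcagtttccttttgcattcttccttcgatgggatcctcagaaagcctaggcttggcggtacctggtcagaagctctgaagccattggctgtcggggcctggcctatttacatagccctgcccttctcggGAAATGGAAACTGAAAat
Oas3 (chr5:120777660-120777909, minus strand): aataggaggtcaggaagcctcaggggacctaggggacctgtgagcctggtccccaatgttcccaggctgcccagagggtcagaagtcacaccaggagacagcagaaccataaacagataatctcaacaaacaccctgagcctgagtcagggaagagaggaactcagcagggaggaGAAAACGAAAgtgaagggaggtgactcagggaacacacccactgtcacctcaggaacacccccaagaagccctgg
Ifih1 (chr2:62646206-62646235, minus strand): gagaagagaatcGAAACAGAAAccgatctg
In Oas1a and Oas1g the capitals join 2 overlapping matches and are the same letters in both genes, just ahead of the start. In Ifit1bl1 the core lies on the opposite strand. The Ifih1 match lies in transcribed sequence.

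Genes of the interferon gamma response rose in 14 of 37 tested cases, against 1.5% of all tested genes, and none fell. All 37 were positive in sign (median 0.87). Many are shared with the type I list. Cxcl10, a chemokine for T cells, was at 31.7, 26.9, 32.8 and 30.1 CPM in vehicle and 41.4, 70.5, 58.6 and 53.6 CPM in ACSS2i (0.88 ± 0.14, adjusted p = 0.017). Irgm2, an immunity GTPase, rose by 0.95 ± 0.16. On chromosome 3, 4 guanylate-binding protein genes called higher, by 0.78 to 1.07, lay together with no uncalled tested gene between them. The count in the list ran from 1 to 21 when 1 library was left out and changed by over 1.5 times without vehicle 2, 3 or 4 or ACSS2i 2, 3 or 4. It was 19 without the muscle-rich libraries. Cxcl10 lost its call without vehicle 2 or vehicle 3 (adjusted p up to 0.0615), and Irgm2 without vehicle 3 or 4 or ACSS2i 2 or 4 (up to 0.0669).

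MHC class I genes show peptides to CD8 T cells. They rose in 10 of 25 tested cases, against 1.5% of all tested genes, and none fell (median 0.47). H2-Q6 was at 17.4, 9.61, 13.7 and 14.6 CPM in vehicle and 29.4, 52.2, 33.6 and 33.8 CPM in ACSS2i (1.43 ± 0.21, adjusted p = 0.0111). The classical heavy chain H2-D1 was at 1497, 1088, 1477 and 1436 CPM and 1851, 1903, 1905 and 1979.5 CPM (0.47 ± 0.09, adjusted p = 0.0356). Vehicle 2 was lowest and the treated libraries lay close together. Peptide supply moved with the heavy chains: the immunoproteasome subunits Psmb9 (1.07 ± 0.19) and Psmb8 (0.75 ± 0.15) and the transporter Tap1 (0.98 ± 0.18) all rose. These 3 genes are neighbours in chr17:34181987-34201454, with bounds set by their calls. H2-T22 (0.70 ± 0.11) and Nlrc5, the activator of class I transcription (0.65 ± 0.11), rose too. Between 1 and 11 of the list rose when 1 library was left out, with changes of over 1.5 times without any but vehicle 1 or ACSS2i 1, and 6 rose without the muscle-rich libraries. H2-Q6 was called without each library in turn. The call of H2-T22 was lost without ACSS2i 2. Psmb9, Tap1, H2-Q7 (1.51 ± 0.27) and Nlrc5 each lost it without vehicle 3, ACSS2i 2 or ACSS2i 4, the first 3 also without vehicle 4 and Nlrc5 without vehicle 2. H2-D1 lost it without any 1 library but vehicle 1 or 2, and Psmb8 without any but vehicle 1 (adjusted p up to 0.124). Without the muscle-rich libraries H2-D1, Psmb8 and H2-T22 were not called (adjusted p = 0.176, 0.0686 and 0.0503). H2-Q6 and H2-Q7 are near copies and may share reads.

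MHC class II genes, which show peptides to CD4 T cells, were all positive in sign (14 of 14, median 0.73), but 1 passed the test. That gene is Ctss, the protease that trims the class II invariant chain, at 838, 628, 635 and 796 CPM in vehicle and 1047, 1428, 1037 and 1281 CPM in ACSS2i (0.73 ± 0.13, adjusted p = 0.0219). It lost its call without vehicle 2, vehicle 3, ACSS2i 2 or ACSS2i 4 (up to 0.082). From 0 to 4 of the 14 were called when 1 library was left out, none without vehicle 2, vehicle 3, ACSS2i 2 or ACSS2i 4, 4 without vehicle 1 and 2 without ACSS2i 3. Without the muscle-rich libraries 7 of the 14 passed.

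**Figure D3:**
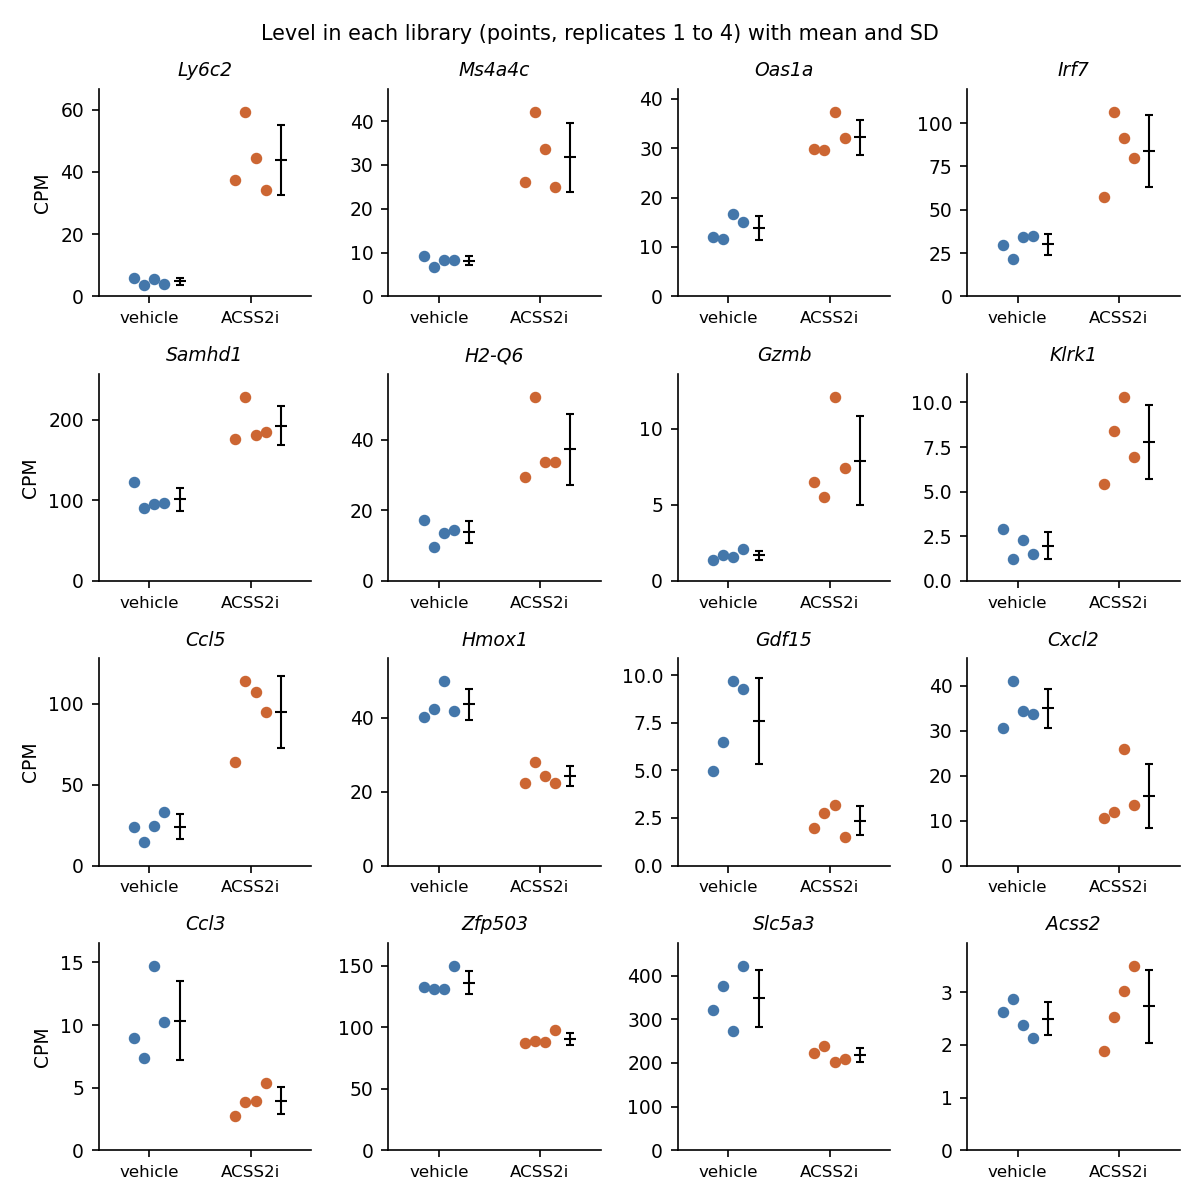
Each panel shows the CPM of 1 gene in the 4 vehicle (blue) and 4 ACSS2i (orange) libraries in the order of their replicate numbers, with the group mean and SD in black, on a linear axis from 0. For Acss2 the groups overlap, and for the other 15 genes they do not.

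Cytotoxic granule and natural killer genes rose in 15 of 29 tested cases, against 1.5% of all tested genes, and none fell. All 29 were positive in sign, with a median of 1.55. Gzmb, the granule protease granzyme B, was at 1.39, 1.7, 1.57 and 2.07 CPM in vehicle and 6.52, 5.49, 12.1 and 7.44 CPM in ACSS2i (2.23 ± 0.27, adjusted p = 0.00491). Klrk1, the activating receptor NKG2D, was at 2.89, 1.22, 2.27 and 1.5 CPM and 5.45, 8.4, 10.3 and 6.96 CPM (1.98 ± 0.29, adjusted p = 0.0116). Klrc1, the inhibitory receptor NKG2A, was at 6.16, 3.34, 3.79 and 3.45 CPM and 10.8, 17.2, 13.3 and 14.4 CPM (1.73 ± 0.22). The treated libraries were higher for the activating and the inhibitory receptor alike. In chr6:129591782-129740484, with bounds set by the calls, 5 killer receptor genes were higher, by 1.53 to 1.98, with no uncalled tested gene between them. Cd96, an adhesion receptor of T and natural killer cells, rose by 2.20 ± 0.32. Of the defining markers, Prf1 lay at 1.34, 0.584, 1.79 and 1.09 CPM in vehicle and 2.7, 5.15, 7.62 and 4.8 CPM in ACSS2i, and Ncr1 had 2, 9, 7 and 3 counts in vehicle and 0, 21, 18 and 17 in ACSS2i and was not tested. Between 5 and 14 of the list rose when 1 library was left out, over 1.5 times fewer without vehicle 2, vehicle 3, ACSS2i 2 or ACSS2i 4, and 6 rose without the muscle-rich libraries. Gzmb, Klrk1, Klrc1 and Cd96 were called in all of these fits.

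T cell identity genes were positive in 35 of 36 tested cases (median 1.48), and 8 rose. The summed level was 123, 77.1, 106 and 87.5 CPM in vehicle and 188, 299, 158 and 184 CPM in ACSS2i, highest in ACSS2i 2. Trbc2, a constant segment of the T cell receptor, was at 5.68, 1.75, 3.68 and 5.12 CPM and 12.9, 21.3, 8.97 and 15.3 CPM (1.85 ± 0.34, adjusted p = 0.0265). Cd8b1, the CD8 beta chain, was at 6.69, 6.48, 7.79 and 7.65 CPM and 11.7, 13, 10.1 and 13.5 CPM (0.76 ± 0.13, adjusted p = 0.0193). Cd3e, a defining marker, lay at 1.12, 0.265, 0.92 and 0.805 CPM in vehicle and 2.59, 4.66, 1.41 and 2.26 CPM in ACSS2i and did not pass (1.80 ± 0.46, adjusted p = 0.0795). The DESeq2 test called 22 of the 36 higher, against 3.59% of all its genes. The edgeR calls moved with single libraries, and 0 to 10 genes of the list passed when 1 library was left out. Changes of over 1.5 times came without vehicle 2, 3 or 4 or ACSS2i 1, 2 or 4. Trbc2 lost its call without each of those 6, and Cd8b1 without vehicle 2 or 3 or ACSS2i 2 or 4 (adjusted p up to 0.0948 and 0.0697). Without the muscle-rich libraries 5 passed, with Trbc2 among them but not Cd8b1 (adjusted p = 0.0599).

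The 3 chains of the interleukin 2 receptor, which have no list of their own here, rose. Il2rb, the interleukin 2 receptor beta chain, was at 10.2, 5.84, 8.34 and 9.49 CPM in vehicle and 15.6, 26.4, 26.5 and 20.6 CPM in ACSS2i (1.40 ± 0.20, adjusted p = 0.0111), and was called without each library in turn. The alpha chain Il2ra, found on regulatory and activated T cells, was at 2.52, 1.59, 1.95 and 1.09 CPM and 5.45, 11.4, 9.35 and 5.18 CPM (2.13 ± 0.32). The shared gamma chain Il2rg rose by 1.22 ± 0.18. Of 11 checkpoint and exhaustion genes tested, 5 rose and none fell (median 1.61). Their summed level overlapped between the groups, at 194, 176, 255 and 277 CPM in vehicle and 216, 204, 203 and 200.4 CPM in ACSS2i. Most of it is Tnfrsf9, the costimulatory receptor 4-1BB, at 158, 151, 227 and 245 CPM and 159, 129.9, 157 and 146 CPM (-0.40 ± 0.15, adjusted p = 0.252), the 1 member negative in sign. Ctla4, an inhibitory receptor, was at 0.589, 0.212, 0.379 and 0.633 CPM and 2.97, 5.78, 1.84 and 1.73 CPM (2.75 ± 0.49, adjusted p = 0.0219). The costimulatory receptors Tnfrsf18, or GITR (2.29 ± 0.43), and Tnfrsf4, or OX40 (1.73 ± 0.31), rose too. Those 3 are low genes, with all vehicle libraries under 3 CPM. Among checkpoint ligands 2 of 11 rose, Cd80 (1.60 ± 0.26) and Lgals9 (0.45 ± 0.09). From 1 to 5 checkpoint receptors were called when 1 library was left out, over 1.5 times fewer without any but vehicle 1 or ACSS2i 3, and 3 without the muscle-rich libraries. Ctla4, Tnfrsf4 and Tnfrsf18 each lost the call without vehicle 2, vehicle 3, ACSS2i 1 or ACSS2i 2, Tnfrsf4 and Tnfrsf18 also without vehicle 4, and Tnfrsf18 also without ACSS2i 4 (adjusted p up to 0.0907). Il2ra lost it without vehicle 2 or 3 and Il2rg without vehicle 3. Cd80 lost it without vehicle 2 or 3 or ACSS2i 2 or 4, and Lgals9 without any 1 library but vehicle 1 or ACSS2i 1 (up to 0.114). Without the muscle-rich libraries Ctla4, Tnfrsf4, Cd80 and Lgals9 were not called (adjusted p = 0.0722, 0.0667, 0.0987 and 0.138).

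B and plasma cell genes behaved differently between treated libraries. Their summed level was 213, 187, 383 and 283 CPM in vehicle and 445, 1250.0, 442 and 464 CPM in ACSS2i, with ACSS2i 2 far above the rest. Igkc, the kappa light chain, was at 12.7, 0.955, 119 and 67 CPM in vehicle and 151, 644, 157 and 157 CPM in ACSS2i (2.48 ± 0.98, adjusted p = 0.269), and did not pass. Mzb1, a plasma cell chaperone (3.04 ± 0.68, adjusted p = 0.0524), and Ighg2c (3.18 ± 0.89, adjusted p = 0.114) did not pass either. Of 18 tested genes the DESeq2 test called 4 higher, against 3.59% of all its genes. In the edgeR test Cd37, a tetraspanin of mature lymphocytes (0.83 ± 0.17, adjusted p = 0.0359), was the 1 that rose. Its call was lost without any 1 of the 8 libraries (up to 0.119). Without the muscle-rich libraries Cd37 was not called either (adjusted p = 0.125). The B cell markers Ms4a1 and Cd79a had 8 to 23 counts per group and were not tested. The lymph node vessel genes Glycam1 and Madcam1 had 0 and 1 counts in vehicle and 6 and 5 in ACSS2i. The sums of T cell genes and of adipocyte genes (194, 98.3, 348 and 268 CPM in vehicle, 234, 666, 460.1 and 237 CPM in ACSS2i) were also highest in ACSS2i 2. The part of neighbouring tissue in the lymphocyte results was not tested.

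**Figure D4:**
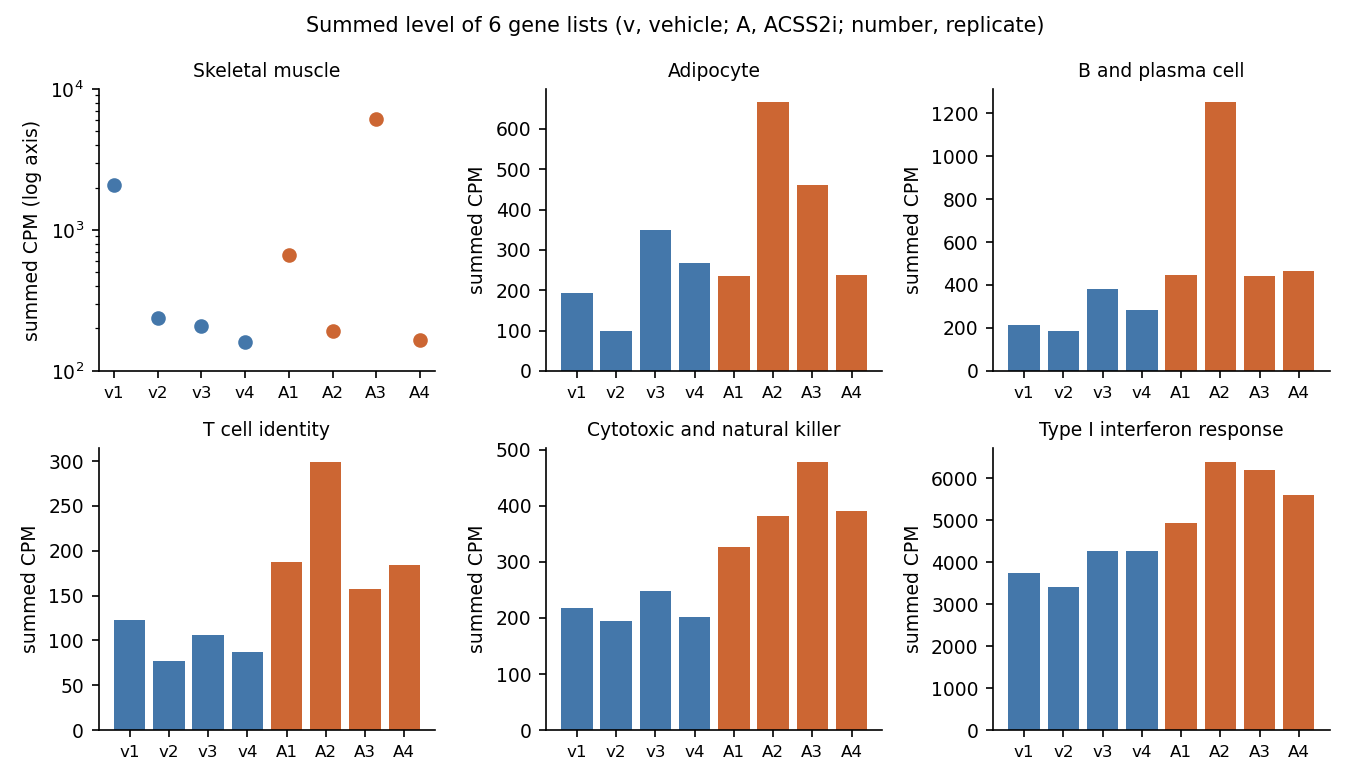
Summed CPM of 6 gene lists in each library, on a log axis for muscle (points) and on linear axes from 0 for the others (bars). The interferon and cytotoxic sums of all 4 ACSS2i libraries lie above all 4 vehicle libraries, while the muscle sum is high in v1, A1 and A3 and the B cell sum is highest in A2.

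Of 36 macrophage genes tested, 7 rose and none fell, with a median of 0.26. Their summed level overlapped between the groups, at 12970, 11620, 12210 and 15180 CPM in vehicle and 15050, 13390, 11670 and 16130 CPM in ACSS2i. The defining markers Adgre1 and Csf1r were not among the 7. C1qa, the complement subunit made by tissue macrophages, was at 410.1, 381, 452 and 488 CPM in vehicle and 581, 698, 559 and 552 CPM in ACSS2i (0.46 ± 0.10, adjusted p = 0.043). Every treated library was above every control, by less than 2-fold. Aif1, the actin-bundling protein IBA1 (0.74 ± 0.11), Cd72 (0.89 ± 0.14) and Siglec1, a sialic acid receptor induced by interferon (0.68 ± 0.11), rose too. From 1 to 8 were called when 1 library was left out, with changes of over 1.5 times without vehicle 2, vehicle 3, ACSS2i 2 or ACSS2i 4, and 1 was called without the muscle-rich libraries. C1qa lost its call without any 1 library but vehicle 4, Aif1 without vehicle 3, Cd72 without vehicle 2 or 3, and Siglec1 without vehicle 2 or 3 or ACSS2i 2 or 4 (up to 0.151). Without the muscle-rich libraries Cd72 kept its call, and C1qa, Aif1 and Siglec1 lost theirs (adjusted p = 0.205, 0.0567 and 0.107). Of 16 complement genes 3 rose (0 to 2 when 1 library was left out), among them Cfb, a factor of the alternative pathway, at 31.6, 14.7, 35.6 and 33.5 CPM and 61.1, 118, 95.9 and 76.8 CPM (1.61 ± 0.27). Cfb lost its call without vehicle 3 or ACSS2i 2 (up to 0.0622) and without the muscle-rich libraries (adjusted p = 0.063).

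Other myeloid cells gave few calls. Of 23 dendritic cell genes 1 rose, Ccl22, a chemokine for regulatory T cells (2.16 ± 0.40), whose call was lost without any 1 library but ACSS2i 3 or 4 (up to 0.099). Without the muscle-rich libraries 2 members were called, and Ccl22 was not (adjusted p = 0.095). The DESeq2 test called 5 of the 23 higher, against 3.59% of all its genes. Neutrophil genes gave none of 20 in the edgeR test, with a median of -0.03. At an unadjusted p under 0.05, 8 of the 20 passed, against 14.6% of all tested genes. The DESeq2 test called 3 higher and 2 lower, against 3.59% and 1.42% of all its genes. Members ran both ways. Trem1, a receptor that amplifies myeloid inflammation, was at 10.2, 8.02, 9.96 and 11.7 CPM in vehicle and 14.4, 15.1, 18.1 and 12.4 CPM in ACSS2i (0.59 ± 0.15, adjusted p = 0.0735), with no overlap, and the low gene Stfa3, a stefin, had a log2 fold change of 1.48 ± 0.43 (adjusted p = 0.122), also with no overlap. The neutrophil alarmin S100a8 was at 34.9, 46.3, 39.2 and 23 CPM in vehicle and 17.5, 15.1, 26.7 and 19.9 CPM in ACSS2i (-0.86 ± 0.22, adjusted p = 0.0806), so the groups overlapped. Of 9 mast cell and eosinophil genes none passed in edgeR or DESeq2, nor at an unadjusted p under 0.05. Their sum stood at 46.9, 189.5, 49.7 and 38 CPM in vehicle, where vehicle 2 was far above the others, and at 64.6, 66.2, 66.3 and 55 CPM in ACSS2i.

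Chemokines moved both ways. Among 20 for lymphocytes and monocytes, 5 rose and 2 fell. Ccl5, which draws T cells and monocytes, was at 24.1, 14.3, 24.4 and 33.1 CPM in vehicle and 63.8, 114, 107 and 95.3 CPM in ACSS2i (1.99 ± 0.24, adjusted p = 0.00491), and was called without each library in turn. Xcl1, made by cytotoxic lymphocytes for cross-presenting dendritic cells, rose by 1.32 ± 0.21. Ccl3, or MIP-1 alpha, ran the other way, at 9, 7.38, 14.7 and 10.2 CPM and 2.75, 3.83, 3.89 and 5.38 CPM (-1.38 ± 0.25, adjusted p = 0.0237). Ccl12, a ligand of the monocyte receptor CCR2, was at 20.5, 21.1, 28.1 and 27 CPM and 13.3, 13.2, 16.7 and 12.1 CPM (-0.81 ± 0.14, adjusted p = 0.0187). For both genes every treated library was below every control. Xcl1 lost its call without vehicle 3 or ACSS2i 2 or 4, Ccl12 without vehicle 3 or ACSS2i 1, 2 or 4, and Ccl3 without vehicle 3 or 4 or ACSS2i 1 or 2 (adjusted p up to 0.0572, 0.0707 and 0.0815). The 7 calls became 1 to 6 when 1 library was left out, over 1.5 times fewer without any but vehicle 1 or ACSS2i 3. Without the muscle-rich libraries 4 rose and 1 fell. Ccl5 and Ccl12 kept their calls there, and Xcl1 and Ccl3 lost theirs (adjusted p = 0.0615 and 0.159).

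Among the 9 CXCR2 ligands and colony stimulating factors tested, 8 were negative in sign (median -0.52) and 1 fell. That gene was Cxcl2, a chemokine for neutrophils, at 30.6, 41, 34.4 and 33.7 CPM in vehicle and 10.5, 12, 25.9 and 13.5 CPM in ACSS2i (-1.18 ± 0.24, adjusted p = 0.0421). ACSS2i 3, the library with most muscle RNA, was closest to the controls. Without ACSS2i 3 the call was kept, and without any other 1 library it was lost (up to 0.142). Without the 3 muscle-rich libraries it stood at a log2 fold change of -1.51, adjusted p = 0.0149. Its neighbour Cxcl1 was at 38.9, 62.2, 57.5 and 36.8 CPM and 16.7, 21.9, 52.8 and 22.5 CPM (-0.78 ± 0.33, adjusted p = 0.298), so the groups overlapped, again through ACSS2i 3. The Cxcl2 promoter is shown because it holds a full NF-kB site, GGGAA followed directly by TTTCC (in capitals), a motif chosen after its sequence was seen and found in 13 of the 10710 promoters (0.121%).
Cxcl2 (chr5:90903649-90903898, plus strand): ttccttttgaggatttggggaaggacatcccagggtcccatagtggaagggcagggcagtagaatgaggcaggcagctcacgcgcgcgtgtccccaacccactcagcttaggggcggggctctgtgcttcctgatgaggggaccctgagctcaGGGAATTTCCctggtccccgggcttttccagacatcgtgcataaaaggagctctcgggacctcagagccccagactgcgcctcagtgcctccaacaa
The interferon and STAT cores and the ATF4 composite core were not found in it. The last, TGATGNAA, was found in 3% of all tested genes with a promoter, 6.32% of the higher and 0% of the lower genes.

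Stress and redox genes were among the 32 that fell. Hmox1, heme oxygenase 1, which degrades heme and is induced by oxidative stress, was at 40.3, 42.5, 49.9 and 41.9 CPM in vehicle and 22.4, 28, 24.3 and 22.3 CPM in ACSS2i (-0.85 ± 0.10, adjusted p = 0.00491). It was called without each library in turn and narrowly missed the threshold without the muscle-rich libraries (a log2 fold change of -0.83, adjusted p = 0.0507). It was the only one of 27 Nrf2 antioxidant genes past the test (median -0.14). The groups did not overlap for 7 lower members and 1 higher member, against 3.46% and 5.96% of all tested genes. The DESeq2 test called 6 lower, against 1.42% of all its genes. Without vehicle 1, 2 were called lower, against 35 of all 15851 genes tested in that fit. Ftl1, the ferritin light chain, was at 2213, 2416, 2859 and 2929.6 CPM and 2082, 2094, 2004 and 2030.3 CPM (-0.34 ± 0.09, adjusted p = 0.0846), and its processed copy Ftl1-ps1, which may take its reads, fell. Gdf15, a secreted stress signal, was at 4.98, 6.48, 9.69 and 9.26 CPM in vehicle and 1.99, 2.77, 3.19 and 1.49 CPM in ACSS2i (-1.69 ± 0.28, adjusted p = 0.0187). Its call was lost without vehicle 3, ACSS2i 1, ACSS2i 2 or ACSS2i 4 (up to 0.0625) and was kept without the muscle-rich libraries (a log2 fold change of -1.99, adjusted p = 0.0434). It was the only one past the test of 26 integrated stress response genes (median -0.09) and of 19 p53 targets (median -0.03). The DESeq2 test called 3 and 1 lower in these lists, against 1.42% of all its genes. Of the integrated stress response genes 3 were lower without overlap, against 3.46% of all tested genes. Without vehicle 1, 2 of them were called lower. The bases before the start of Gdf15, the called gene with the steepest fall, hold none of the 4 motifs searched and are given for comparison.
Gdf15 (chr8:70632457-70632706, minus strand): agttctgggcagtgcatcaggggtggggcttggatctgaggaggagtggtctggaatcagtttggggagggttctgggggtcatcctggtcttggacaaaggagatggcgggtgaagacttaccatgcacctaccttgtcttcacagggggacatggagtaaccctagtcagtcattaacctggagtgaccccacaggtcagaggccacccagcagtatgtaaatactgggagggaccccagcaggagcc
Atf4, the transcription factor at the centre of the integrated stress response, was at 379.7, 442, 473 and 426 CPM and 362, 379, 353 and 371 CPM (-0.23 ± 0.07, adjusted p = 0.149).

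Among the lower genes are transcription factors of development, which have no list here. Zfp503 was at 133, 131, 131 and 149.7 CPM in vehicle and 87.2, 89, 88.2 and 97.7 CPM in ACSS2i (-0.59 ± 0.07, adjusted p = 0.00491). Irx2, of the Iroquois homeobox family, was at 40.5, 38.8, 34.2 and 39 CPM and 27, 26.4, 25.3 and 27.8 CPM (-0.52 ± 0.08, adjusted p = 0.0117). Both were called without each library in turn but not without the muscle-rich libraries (a log2 fold change of -0.56, adjusted p = 0.0735 and a log2 fold change of -0.46, adjusted p = 0.168). Irx5 (-0.58 ± 0.11) and Irx1 (-0.50 ± 0.11), from the same family, fell too, Irx5 losing its call without any 1 library but vehicle 1 and Irx1 without any of the 8. Nfib, a nuclear factor I gene, was at 688, 653, 585 and 665 CPM and 486, 473, 474 and 539 CPM (-0.39 ± 0.07, adjusted p = 0.023), and lost its call without vehicle 1 or 2 or ACSS2i 1, 2 or 3 (up to 0.0794). Without the muscle-rich libraries Nfib, Irx5 and Irx1 were not called (adjusted p = 0.2975, 0.0981 and 0.311).

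Of the 32 lower genes, 25 are in no list. Spry2, an inhibitor of receptor tyrosine kinase signalling, was at 39.5, 52.6, 53.3 and 47.8 CPM in vehicle and 32, 28.9, 34.5 and 31.8 CPM in ACSS2i (-0.60 ± 0.10, adjusted p = 0.0199). Timp3, an inhibitor of matrix metalloproteases (-0.35 ± 0.07), and Col18a1, the collagen that yields endostatin (-0.38 ± 0.07), fell. None of 30 fibroblast and matrix genes passed in the edgeR test, 6 of the 30 had an unadjusted p under 0.05, against 14.6% of all tested genes, and the DESeq2 test called 1 higher and 1 lower. Slc5a3, the myo-inositol transporter, was at 321, 376, 274 and 423 CPM and 223, 239, 202 and 208 CPM (-0.68 ± 0.12, adjusted p = 0.0233). It lies inside the mitochondrial ribosomal protein gene Mrps6 (-0.47 ± 0.08) on the same strand, at chr16:92058322-92087473 within chr16:92058270-92112227 (mm10), so the 2 cannot be counted as separate falls. Slc5a3 was the only one of 8 osmolyte handling genes past the test, and the DESeq2 test called 2 lower, against 1.42% of all its genes. Spry2 lost its call without vehicle 2 or 3 or ACSS2i 1, 2 or 4, Timp3 without any 1 library but vehicle 4, and Col18a1 without vehicle 2 or 3 or ACSS2i 1, 3 or 4. Slc5a3 lost it without vehicle 2 or any 1 treated library, and Mrps6 without vehicle 2 or 3 or ACSS2i 2 or 4 (up to 0.106 for Timp3 and 0.0826 for Slc5a3). Without the muscle-rich libraries Spry2 kept its call. Timp3, Col18a1, Slc5a3 and Mrps6 lost theirs there (adjusted p = 0.343, 0.23, 0.175 and 0.0506).

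The acetate pathway showed no call. Acss2, the gene of the inhibited enzyme, was at 2.62, 2.87, 2.38 and 2.13 CPM in vehicle and 1.89, 2.52, 3.03 and 3.5 CPM in ACSS2i (0.13 ± 0.23, adjusted p = 0.851), with overlapping groups. Without ACSS2i 4 its sign turned, to -0.02. Its mitochondrial relatives Acss1 (0.63 ± 0.26, adjusted p = 0.288) and Acss3 (-0.40 ± 0.28, adjusted p = 0.559) did not pass either. None passed of 25 genes of acetyl-CoA supply, 19 of fatty acid synthesis, 24 of cholesterol synthesis and uptake, 22 of fatty acid oxidation, 22 of the citric acid cycle, 42 of oxidative phosphorylation and 30 of histone acetylation. Median log2 fold changes in these 7 lists ran from -0.12 to 0.01. At an unadjusted p under 0.05, 20 of their 179 distinct tested members passed (of all tested genes 14.6% did), and the DESeq2 test called 1 higher and 3 lower. Fasn, fatty acid synthase, was at 103, 94.6, 115 and 99.8 CPM and 82.2, 88.4, 98.2 and 81.3 CPM (-0.24 ± 0.09, adjusted p = 0.218), and Scd2, a desaturase, at 261, 268, 259 and 224 CPM and 192, 180.2, 222 and 197 CPM (-0.36 ± 0.08, adjusted p = 0.0583). Cholesterol genes were negative in sign in 23 of 24 cases, with a median of -0.12. In simulated libraries of this size the test found 84 of 100 genes changed 2-fold, so smaller changes may go uncalled. The changed genes were drawn from those averaging 2 CPM or more, so this share does not cover lower genes such as Acss3. It is pooled over all levels above that, and the share for genes as low as Acss2 was not examined.

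Glucose and growth lists gave 1 call. Of 23 glycolysis genes 1 rose, Pfkfb4, a switch of glycolytic flux (0.58 ± 0.11), which lost its call without any 1 library but vehicle 1 or ACSS2i 3 (up to 0.0931). Without the muscle-rich libraries Pfkfb4 was not called (adjusted p = 0.101). None passed of 24 hypoxia genes, 45 proliferation genes, 53 ribosomal protein genes and 18 circadian clock genes. Proliferation genes were positive in sign in 44 of 45 cases, with a median of 0.16, and ribosomal protein genes were negative in 49 of 53, with a median of -0.10. Foxm1, a transcription factor of cell division, was at 29, 24.5, 30.2 and 25.3 CPM in vehicle and 34.4, 34.5, 35.9 and 31 CPM in ACSS2i (0.32 ± 0.09, adjusted p = 0.113). At an unadjusted p under 0.05, 29 of the 140 distinct tested members of the hypoxia, proliferation, ribosomal protein and clock lists passed (of all tested genes 14.6% did). The DESeq2 test called 3 of them lower and none higher.

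Stromal and neighbouring tissue lists gave no call in the edgeR test. None passed of 26 endothelial, 14 mesenchymal, 8 epithelial, 23 muscle, 18 adipocyte, 10 erythrocyte and 8 nerve genes. At an unadjusted p under 0.05, 13 of these 106 distinct genes passed (of all tested genes 14.6% did), and the DESeq2 test called 1 higher and 2 lower. The muscle list had a median of 1.34 over the 8 libraries and -0.16 without vehicle 1, ACSS2i 1 and ACSS2i 3. Its direction therefore rests on those libraries, as for Myh1, a myosin heavy chain, at 3.32, 3.29, 1.89 and 1.9 CPM in vehicle and 7.12, 0.922, 168 and 1.87 CPM in ACSS2i. The adipocyte list had a median of 0.94 and 1.03 without them.

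**Figure D5:**
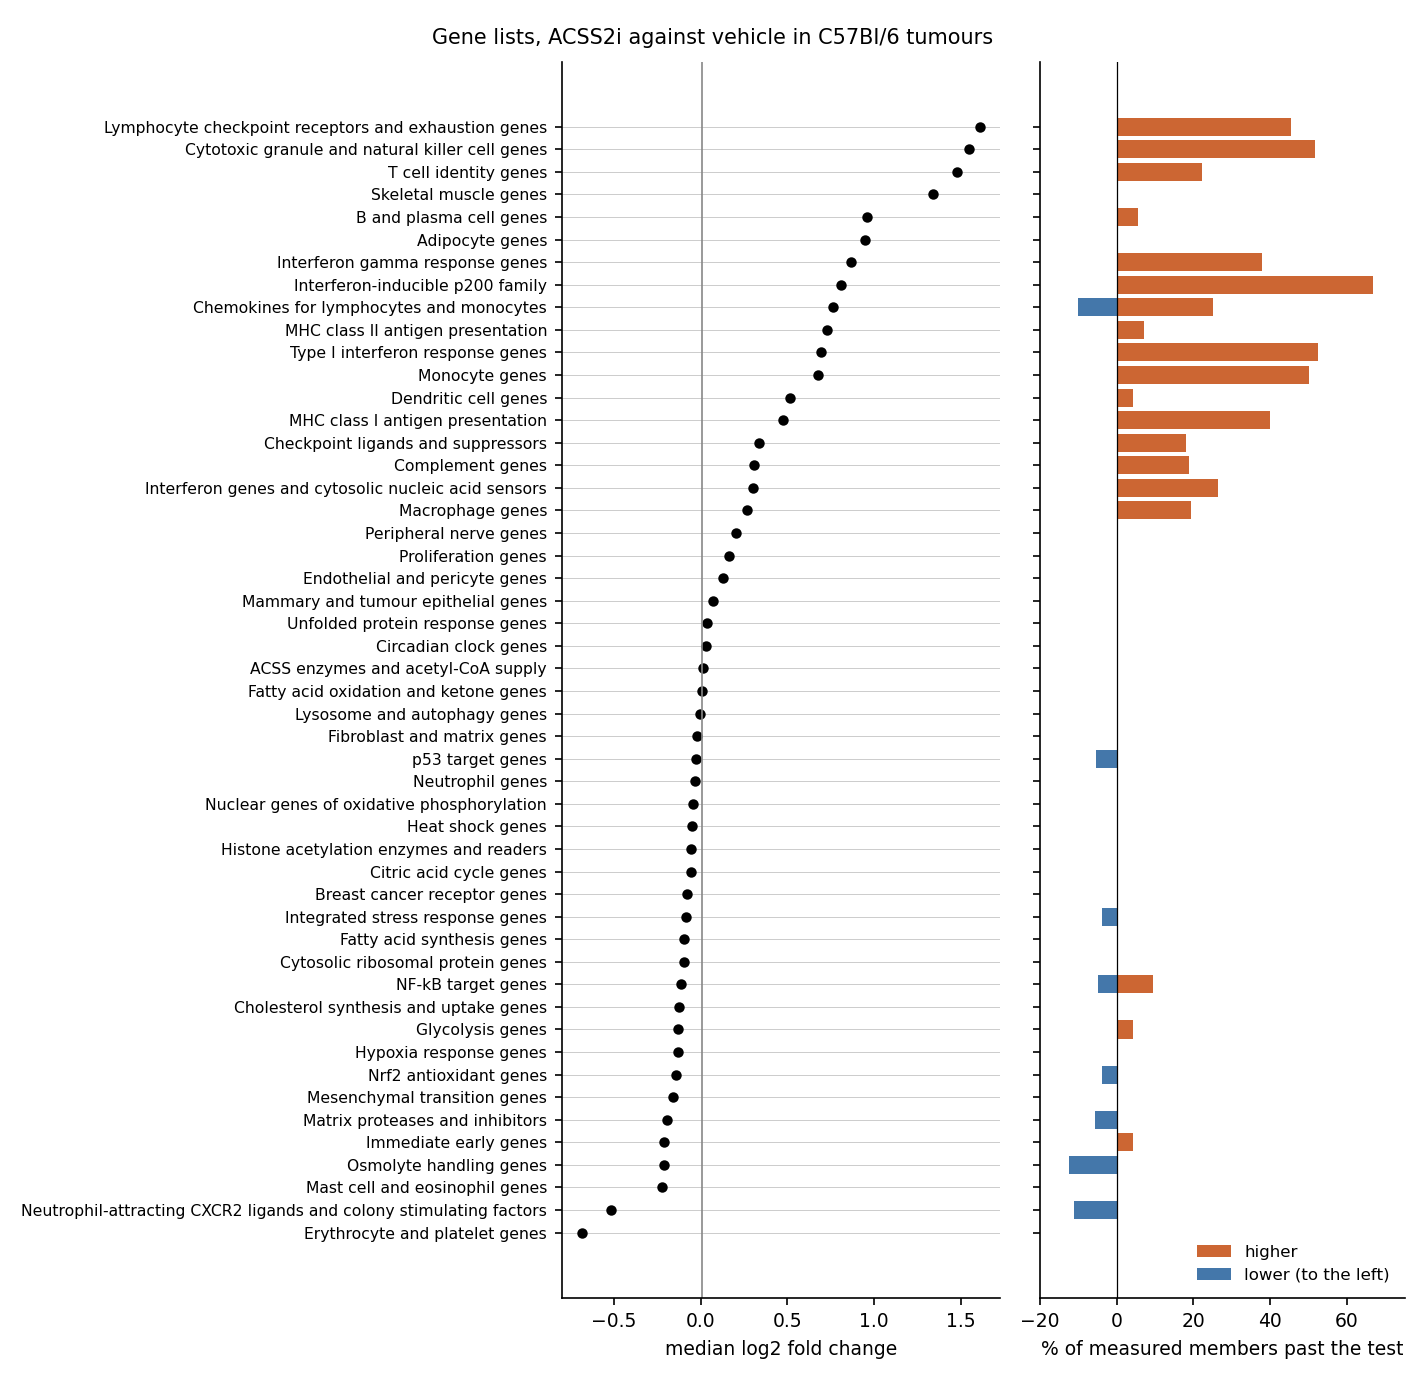
Gene lists with 5 or more measured members, ordered by median log2 fold change (left, with the median of all genes as a grey line), and the percent of measured members that rose or fell (right). Checkpoint, cytotoxic and T cell lists have the highest medians, from 1.48 to 1.61, and the p200 family has the largest share called, 66.7%.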

How the data were processed

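RNA of bulk tumours was measured with the QuantSeq 3' kit in polyadenylated RNA, per the labels. The authors deposited raw whole-number counts per Ensembl gene in 1 table of 51789 genes, used as deposited. The submitters' processing notes name mm10, RSEM 1.2.3 and DESeq2 without their roles; RSEM estimates may have been rounded. The aligner, annotation release and use of strand are not given in the sources used here, so overlapping genes cannot be separated. GENCODE M21 gave symbols for all but 193 genes. The table has no rows for other series. Chi-square per degree of freedom between libraries of 1 group was 11.2 to 27.4, where counting noise gives about 1. Within a group, then, none is the same library sequenced again. Whether any are preparations of 1 tumour was not tested. The 8 libraries were fitted alone with edgeR 4.0.16 in R 4.3.3 (filterByExpr, TMM, quasi-likelihood test, two-sided, Benjamini-Hochberg over 15589 genes, threshold 0.05, biological coefficient of variation 0.181); errors of log2 fold changes are standard errors. Comparisons of 4 with 4 libraries by permutation cannot go below p = 0.0286 and were not used for single genes.

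Named genes are the ACSS genes, up to 15 per direction by p and 5 each by difference and by fold among called genes that do not overlap and average at least 1 on the log2 CPM scale, up to 4 per list by p, and muscle markers. Irf7, Mx1, Isg15, Ube2l6, Uba7, Stat2, Cgas, Psmb8, Psmb9, Tap1, Igkc, Il2rg, Irx1 and the genes so marked in the closing section were added after their values were seen. Some genes that the rule names are not reported here. The members and the 52 gene lists were chosen with earlier results of these data known. Lists are described by counts and medians without a test. On simulated data, with changes set in genes averaging 2 CPM or more, the test found 84 of 100 changes of 2-fold and 100 of 100 of 4-fold. Of its 194 calls 10 were false. Alternatives were DESeq2 1.42.0 size factors and test, limma 3.58.1 voom with quality weights, no filter, robust estimation, a replicate block, all 14 libraries in 1 model, removal of each library or of the muscle-rich ones, and removal or adjustment of muscle genes.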

Additional observations from a re-analysis of the deposited data

Results flagged for a closer look

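In some groups of 4 libraries, 1 library stood far from the other 3 by the gap to its neighbour relative to the range of the group. Chance gives about 1 in 20 such groups, and 22 of 334 were seen (6.59%). Muscle RNA gave wide gaps: the muscle sum was 2068 CPM in vehicle 1 and 6101 CPM in ACSS2i 3, Acta1 was at 173 and 911 CPM in those libraries, and Myh1 at 168 CPM in ACSS2i 3 against at most 7.12 CPM in the other treated libraries. ACSS2i 2 stood apart in the B and plasma cell sum (1250 CPM, the others 442 to 464), in Igkc (644 CPM), in the endothelial sum (563 CPM, the others 417 to 435), in Psmb8 (145 CPM) and in Clec4a1 (46 CPM). Psmb8 lost its call without it.

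ACSS2i 3 also stood apart in Cxcl1 (52.8 CPM, the other treated libraries 16.7 to 22.5), in the hypoxia sum (4562 CPM, the others 3765 to 3873) and in the sum of acetyl-CoA supply genes (840.1 CPM, the others 765 to 776). Vehicle 2 stood apart in the mast cell sum (189.5 CPM, the others 38 to 49.7), in the osmolyte sum (2190 CPM, the others 1857 to 1899), in H2-D1 (1088 CPM, the lowest) and in Acss3 (1.38 CPM, the lowest). The mast cell sum was also lowest in ACSS2i 4 (55 CPM). The remaining cases were Zfp503 in vehicle 4 (149.7 CPM) and ACSS2i 4 (97.7 CPM), Klrc1 in vehicle 1 (6.16 CPM) and Col18a1 in vehicle 3 (899.6 CPM), each the highest of its group. In these 4 cases the 2 groups still did not overlap.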

How the results depend on the processing

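None of the genes called in the 8 libraries changed sign under any setting tried. The DESeq2 Wald test gave 547 higher and 216 lower genes (763 in all), with all 234 and 32 among them, so that 71.7% rather than 88% of calls were higher. Without a filter on low counts 53 were lower. All 14 libraries in 1 model gave 45 and 9 (54 in all), the muscle-rich libraries left out 124 and 9 (133), and the muscle sum as covariate 18 lower. Leaving out 1 library gave 62 to 218 higher, 8 to 35 lower and 73 to 253 in all, with fewest higher without ACSS2i 2 and fewest lower without vehicle 2 or ACSS2i 4. The cause was not tested, beyond the fewer samples in these fits. A replicate block gave 61 and 10 calls (71), also a fall of over 1.5 times. The settings not named in this section stayed within 1.5 times. Libraries of equal number deviated together with correlations of -0.162 to 0.161, within the range of -0.225 to 0.255 for other numbers. With 4 libraries per group these values cannot decide whether the numbers pair the libraries. Signs turned for Acss2 without ACSS2i 4 (range over single omissions -0.022 to 0.27), for Acta1 without ACSS2i 3 (-0.70 to 7.08), and for Acta1 (-0.14) and Myh1 (-0.76) without the muscle-rich libraries; none of these was called. Depth limits low genes: a group without counts allows up to 0.0409 CPM in vehicle and 0.0382 CPM in ACSS2i, counting error only, and 11817 genes with a count were not tested.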

Other observations

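Of the 234 higher genes, 117 are in none of the gene lists. Among those called in each of the 8 fits that leave out 1 library, Jaml, an adhesion protein of T cells and neutrophils, was at 13.1, 7.59, 10.2 and 11.9 CPM in vehicle and 36.4, 53.1, 34.4 and 28.1 CPM in ACSS2i (1.83 ± 0.21, adjusted p = 0.00491). P2ry14, the receptor for UDP-glucose, was at 4.34, 3.66, 3.57 and 5.29 CPM and 11.6, 14, 9.41 and 10.6 CPM (1.43 ± 0.17, adjusted p = 0.00491), and Selplg, the P-selectin ligand of leukocytes, at 24.5, 17.1, 22.1 and 21.8 CPM and 35.4, 48, 38.2 and 36 CPM (0.88 ± 0.13, adjusted p = 0.0111). P2ry14 and Selplg were chosen after their values were seen, as were the 2 arrestin-domain genes that follow. Txnip, the thioredoxin-interacting protein that limits glucose uptake, was at 83.5, 91.8, 82.8 and 47.7 CPM in vehicle and 146, 178, 167 and 142 CPM in ACSS2i (1.05 ± 0.17, adjusted p = 0.0181), and its relative Arrdc4 rose by 0.65 ± 0.13. Txnip lost its call without vehicle 3 or ACSS2i 2, and Arrdc4 without any 1 of the 8 libraries (adjusted p up to 0.0667 and 0.119). Without the muscle-rich libraries neither was called (adjusted p = 0.105 and 0.256).

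Of 21 NF-kB targets, Nfkbie, an inhibitor of the pathway (0.63 ± 0.11), and the adaptor Traf1 (0.39 ± 0.07) rose and Cxcl2 fell, with a median of -0.12. These are 14.3% of the list, against 1.71% of all tested genes, and 0 to 4 were called when 1 library was left out, changing by over 1.5 times without any but ACSS2i 3. Of 23 immediate early genes, the phosphatase Dusp2 rose (0.63 ± 0.12), while 19 of the 23 were negative in sign and the median was -0.21. Nfkbie lost its call without vehicle 2 or 3 or ACSS2i 1, 2 or 4, Traf1 without any 1 library but ACSS2i 3, and Dusp2 without any but ACSS2i 1 or 3 (adjusted p up to 0.0957, 0.097 and 0.108). Without the muscle-rich libraries Nfkbie, Traf1 and Dusp2 were not called (adjusted p = 0.142, 0.126 and 0.0673). None of the 64 tested genes of the unfolded protein response, heat shock and lysosome lists was called in the edgeR test, 9 had an unadjusted p under 0.05 (of all tested genes 14.6% did), and the DESeq2 test called 1 higher and 1 lower.

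Some of the called genes were neighbours, and how often tested genes in general lie this close was not examined. Each stretch below runs from its first to its last gene called higher, so the shares do not describe whole gene clusters. On chromosome 19, 5 of 9 tested genes in a stretch of the Ms4a cluster were higher. On chromosome 15, Ly6i, Ly6a and Ly6c2 were 3 of 5, and a second stretch with the receptors Il2rb and Csf2rb and the NADPH oxidase subunit Ncf4 held 4 of 9. On chromosome 6 a cluster of C-type lectin genes of myeloid cells (Clec4a1, Clec4a2 and Clec4a3) held 3 of 3, by 0.52 to 0.89. Neighbours in these families can share reads.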
